A study of Mus musculus with 4 samples.

Results

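The 10 genes described here encode RNA-binding proteins known from the nervous system, namely the ELAV (Hu) proteins Elavl1, Elavl2, Elavl3 and Elavl4, the Musashi proteins Msi1 and Msi2, the Fox-type splicing factors Rbfox1, Rbfox2 and Rbfox3, and the splicing factor Nova1. They were chosen by name, but with earlier results of these data known. They are 10 of the 21670 protein-coding genes annotated by GENCODE M21 on mouse chromosomes 1 to 19 and X. From textbook knowledge of where they are expressed, 4 were classed as ubiquitous or progenitor genes (Elavl1, Rbfox2, Msi1 and Msi2) and 6 as neuronal genes (Elavl2, Elavl3, Elavl4, Rbfox1, Rbfox3 and Nova1). ChIP-seq of the histone demethylase PHF2 and of H3K9me2, histone H3 dimethylated at lysine 9, had been done in wild-type (WT) C57BL/6J neural stem cells of embryonic day E12.5, cultured on laminin in medium with EGF (20 ng/ml) and FGF (10 ng/ml). Each target had 1 ChIP sample and 1 input, so all 4 samples shared the genotype and culture, there was no second condition, and no spread between cultures could be measured. The cells' identity could not be checked against marker expression, because the values are positions of 5992 PHF2 peaks and 36171 H3K9me2 regions and not RNA levels. Depth is unknown, and the inputs were not analysed here.

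ELAV proteins bind AU-rich and U-rich stretches of mRNA and raise the stability of their targets; Elavl1 (HuR) is made in most cells, and the other 3 are markers of neurons. Musashi proteins repress translation of bound mRNAs and are used as markers of neural stem and progenitor cells. Rbfox proteins bind UGCAUG in introns and Nova1 binds YCAY repeats, and both direct the splicing programme of neurons; Rbfox3 is the neuronal antigen NeuN. PHF2 can remove methyl groups from histones, and its PHD finger recognises trimethylated H3K4, which marks promoters in use, while H3K9me2 is typical of silenced chromatin.

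PHF2 peaks lay within 1 kb of an annotated coding start at 6 of the 10 genes, Elavl1, Rbfox2, Msi2, Elavl2, Elavl4 and Nova1, and at none of the starts of Msi1, Elavl3, Rbfox1 and Rbfox3. The rate over all protein-coding genes was 29.1%. By gene length it was 24.3% under 50 kb, 45.1% at 50 to 200 kb, 47.9% at 200 to 500 kb and 40.4% over 500 kb. Of the 10 genes, only Elavl1, Msi1 and Elavl3 are shorter than 50 kb. By class, 3 of 4 ubiquitous or progenitor genes and 3 of 6 neuronal genes had a peak. A peak was counted when it overlapped the window of 1 kb on either side of a start by 1 bp or more. No test was made of these counts, because each target had 1 sample and the genes were picked with earlier results of these data known.

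Stretches of genome at 3 starts with a peak and at 4 starts without one are shown so that their CpG content can be compared. Each is the 250 bases before an annotated start, read 5′ to 3′ on the gene's strand from the GRCm38 (mm10) genome sequence of RefSeq, with every CpG dinucleotide in capitals. None of the 7 overlapped an annotated exon. CpG-rich promoters are where trimethylated H3K4 is usually found.
Nova1 (chr12:46818930-46819179, minus strand): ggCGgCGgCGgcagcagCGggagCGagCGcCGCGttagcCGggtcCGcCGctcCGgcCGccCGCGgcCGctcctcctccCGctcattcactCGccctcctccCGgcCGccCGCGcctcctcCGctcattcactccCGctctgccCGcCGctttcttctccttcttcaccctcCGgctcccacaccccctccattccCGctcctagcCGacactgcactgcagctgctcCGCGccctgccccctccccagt
Elavl2 start with the peak (chr4:91376497-91376746, minus strand): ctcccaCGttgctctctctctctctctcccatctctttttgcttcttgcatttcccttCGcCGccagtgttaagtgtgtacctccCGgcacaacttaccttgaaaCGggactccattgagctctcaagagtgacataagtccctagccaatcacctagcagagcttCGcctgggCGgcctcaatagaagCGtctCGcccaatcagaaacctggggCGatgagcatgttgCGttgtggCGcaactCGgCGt
Elavl2 start without a peak (chr4:91372070-91372319, minus strand): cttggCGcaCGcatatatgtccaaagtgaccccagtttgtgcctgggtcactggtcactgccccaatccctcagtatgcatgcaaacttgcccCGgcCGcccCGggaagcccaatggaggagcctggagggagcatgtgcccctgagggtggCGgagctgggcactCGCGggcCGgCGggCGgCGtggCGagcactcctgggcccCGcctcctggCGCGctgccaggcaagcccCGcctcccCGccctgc
Elavl4 start with the peak (chr4:110351910-110352159, minus strand): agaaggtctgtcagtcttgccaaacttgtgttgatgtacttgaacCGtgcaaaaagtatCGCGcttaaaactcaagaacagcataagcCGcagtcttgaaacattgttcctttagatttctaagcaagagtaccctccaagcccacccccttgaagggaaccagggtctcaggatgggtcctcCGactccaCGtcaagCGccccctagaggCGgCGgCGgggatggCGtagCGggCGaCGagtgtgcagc
Elavl4 start without a peak (chr4:110287528-110287777, minus strand): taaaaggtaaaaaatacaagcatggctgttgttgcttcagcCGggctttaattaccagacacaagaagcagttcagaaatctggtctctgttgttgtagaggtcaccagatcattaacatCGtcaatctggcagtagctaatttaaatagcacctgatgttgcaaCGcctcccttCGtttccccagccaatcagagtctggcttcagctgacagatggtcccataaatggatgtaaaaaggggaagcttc
Elavl3 (chr9:22052024-22052273, minus strand): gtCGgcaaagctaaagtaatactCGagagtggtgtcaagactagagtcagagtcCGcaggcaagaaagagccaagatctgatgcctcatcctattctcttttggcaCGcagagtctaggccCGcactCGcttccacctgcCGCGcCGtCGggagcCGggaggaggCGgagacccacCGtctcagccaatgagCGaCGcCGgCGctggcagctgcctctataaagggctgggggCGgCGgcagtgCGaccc
Rbfox3 (chr11:118909573-118909822, minus strand): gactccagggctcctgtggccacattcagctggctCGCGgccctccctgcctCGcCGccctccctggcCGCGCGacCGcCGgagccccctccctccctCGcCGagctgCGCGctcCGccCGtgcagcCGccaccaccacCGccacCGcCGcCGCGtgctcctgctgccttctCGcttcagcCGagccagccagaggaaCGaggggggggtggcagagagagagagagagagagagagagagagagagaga
The Nova1 stretch held 31 CpG dinucleotides and lay wholly under its PHF2 peak. The Elavl2 stretch under the peak held 14, and the stretch before the other Elavl2 start held 18 with no peak within 1 kb of that start. At Elavl4 the stretch at the outer start held 14 CpG dinucleotides, 191 of its 250 bases under the peak, and that at the inner start held 4. Elavl3 and Rbfox3 had no peak, although their stretches held 20 and 24 CpG dinucleotides. Among these 7 stretches, all of neuronal genes, the count of CpG dinucleotides thus did not divide starts with a peak from starts without. No stretch of a ubiquitous or progenitor gene is shown.

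Among the ubiquitous or progenitor genes, Rbfox2 had the peak with the highest score. The authors' score, which has no stated scale and serves only to order peaks within the list, was 413.45 at Rbfox2 (chromosome 15, 77305396 to 77307402), and 78.7% of the 5730 peaks at coding starts scored lower. That peak was 2007 bp long and covered 3 of the 10 coding starts of the gene, all within 0.399 kb of the 5′ end. The starts of shorter Rbfox2 transcripts, 61.4 to 221 kb farther in, had none. Elavl1 had a peak of 1322 bp with a score of 156.58 (chromosome 8, 4324357 to 4325678), above 25.4% of peaks. The same peak held a start of Ccl25, a chemokine gene on the other strand, so it cannot be assigned to one gene or the other. Msi2 was one of the 1.06% of coding genes with 2 or more peaks at its starts. Its peaks scored 125.39 (885 bp, chromosome 11, 88717405 to 88718289) and 112.85 (771 bp, 88718350 to 88719120), above 11.9% and 6.06% of peaks at coding starts. The outer one held a start of the noncoding RNA gene C030037D09Rik on the other strand. Msi1, a classic marker of neural progenitors, had no PHF2 peak nearer than 54.2 kb to any of its 4 starts, and that nearest peak (score 285.72) lay closest to Sirt4.

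The best scores of the ubiquitous or progenitor genes thus ran from 125.39 to 413.45, and those of the neuronal genes ran wider, from 107.83 to 782.94. Nova1 had the highest score and the longest peak of all 10 genes, 782.94 and 3639 bp (chromosome 12, 46816715 to 46820353). Of the peaks at coding starts, 94.3% scored lower and 98.9% were shorter. It reached 1424 bp upstream and 2214 bp downstream of the start, and it covered the second start 1.97 kb inside the gene as well. Elavl2 had a score of 327.5 and a length of 1441 bp (chromosome 4, 91375631 to 91377071), above 68.9% of peaks. Elavl4 had the lowest score, 107.83, near the minimum of 100.02 in the list, at a length of 1298 bp (chromosome 4, 110350803 to 110352100). Only 3.49% of peaks at coding starts scored lower. Among the higher-scoring 50% of peaks, which 14.8% of coding genes had, 1 of 4 ubiquitous or progenitor genes (Rbfox2) and 2 of 6 neuronal genes (Nova1 and Elavl2) were left. The genes without a peak lay far from any: the nearest was 22.6 kb from a start of Elavl3 and lay closest to Prkcsh, 87.9 kb from a start of Rbfox3 and closest to Cant1, and 651 kb from a start of Rbfox1 and closest to Alg1.

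**Figure D1:**
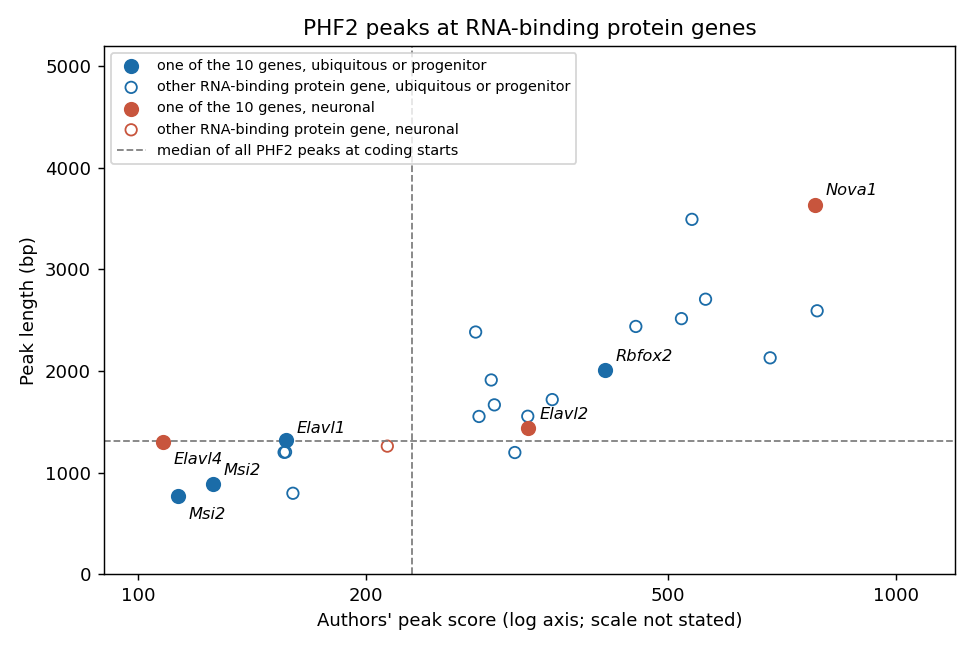
Each circle is 1 PHF2 peak within 1 kb of a coding start, with the authors' score on a log axis and the length in bp. Filled circles are the 7 peaks at the 10 genes, open circles the peaks at 34 other RNA-binding protein genes, blue for ubiquitous or progenitor and red for neuronal genes. Dashed lines are the medians of all peaks at coding starts, 230 and 1309 bp. Nova1 lies at the upper right and Elavl4 and Msi2 at the low end of the score.

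The peak of a gene with several starts lay at some starts and not at others. The 10 genes had 58 coding starts, of which 14 (24.1%) had a PHF2 peak within 1 kb, against 26.8% of all 54081 coding starts. In 4 of the 6 genes with a peak, Elavl1, Elavl4, Rbfox2 and Nova1, the start nearest to the 5′ end had the peak and starts more than 2 kb farther in did not, and Msi2 had all 4 starts within 0.412 kb under its peaks. Elavl2 differed. Its peak lay at a group of 3 starts, 23.5 to 23.6 kb inside the gene, and its 5′-most start had none. With the 5′-most start alone, Elavl2 was lost and the counts were 3 of 4 ubiquitous or progenitor and 2 of 6 neuronal genes, against 27.4% of all coding genes. Peak centres lay downstream of the nearest start of the same gene by 396 bp at Elavl1, 206 bp at Rbfox2 and 83 bp at Elavl2. The distance was 458 bp at Elavl4, 395 bp at Nova1 and 254 bp for the inner Msi2 peak. Only the outer Msi2 peak was centred upstream, at -222 bp. The coding start closest to the centre of the Elavl1 peak belonged to Ccl25 and not to Elavl1.

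PHF2 peaks were found at CpG-rich starts, but several CpG-rich starts of neuronal genes had none. A start was called CpG-rich when CpG observed/expected over 1 kb on either side was at least 0.6, the usual limit on this ratio for CpG islands. No limit on GC content was set, and the Elavl2 starts with the peak had a GC content of 42.1% to 42.4%. Of the 26 CpG-rich starts of the 10 genes, 13 had a peak, against 62.6% of CpG-rich coding starts in all. Of the 32 other starts 1 did (3.12%), the second start of Nova1 (0.444), which shares the broad peak with the first (0.965), against 9.27% of such starts in all. Among ubiquitous or progenitor genes, 8 of 11 CpG-rich starts had a peak (72.7%), and among neuronal genes 5 of 15 did (33.3%). The limit of 0.6 was chosen after the values were seen, and 3 of these 5 are Elavl2 starts just above it, at 0.608 to 0.622. With a limit of 0.7, 8 of 11 ubiquitous or progenitor starts and 1 of 6 neuronal starts (16.7%) had a peak. The starts of a gene often lie within each other's windows, so these counts hold fewer independent places than starts. The 3 CpG-rich starts of ubiquitous or progenitor genes without a peak were all at Msi1 (0.732 to 0.795). The 10 of neuronal genes were 4 at Elavl2 (0.780 to 0.800), 2 at Elavl3 (0.697 and 0.699) and 4 at Rbfox3 (0.688 to 0.720). At Elavl2 the group of 3 starts with the peak had a lower CpG observed/expected, 0.608 to 0.622, than the 4 starts without one, which lay 3.56 to 3.67 kb from the edge of that peak. Rbfox1 had no CpG-rich start: its 7 values ran from 0.141 to 0.578. Pooled over the windows of all starts of a gene, CpG observed/expected was highest at Msi2 (0.798) and Nova1 (0.776), in the highest decile of coding genes, where 73.1% had a peak, and Elavl1 (0.694) followed in the ninth, with a rate of 60.1%. It was lowest at Rbfox1 (0.349), in the fourth decile, where 8.72% did. Msi1 (0.539), Elavl2 (0.507) and Elavl3 (0.502) lay in the seventh decile, with a rate of 41.8%, and Rbfox2 (0.459), Elavl4 (0.447) and Rbfox3 (0.460) in the sixth, with a rate of 35.0%. These pooled values depend on the inner starts. At the 5′-most start alone, the value was 0.795 at Rbfox2, 0.689 at Elavl4 and 0.185 at Rbfox3, which was then the lowest of the 10 genes, below Elavl2 (0.442) and Rbfox1 (0.499).

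**Figure D2:**
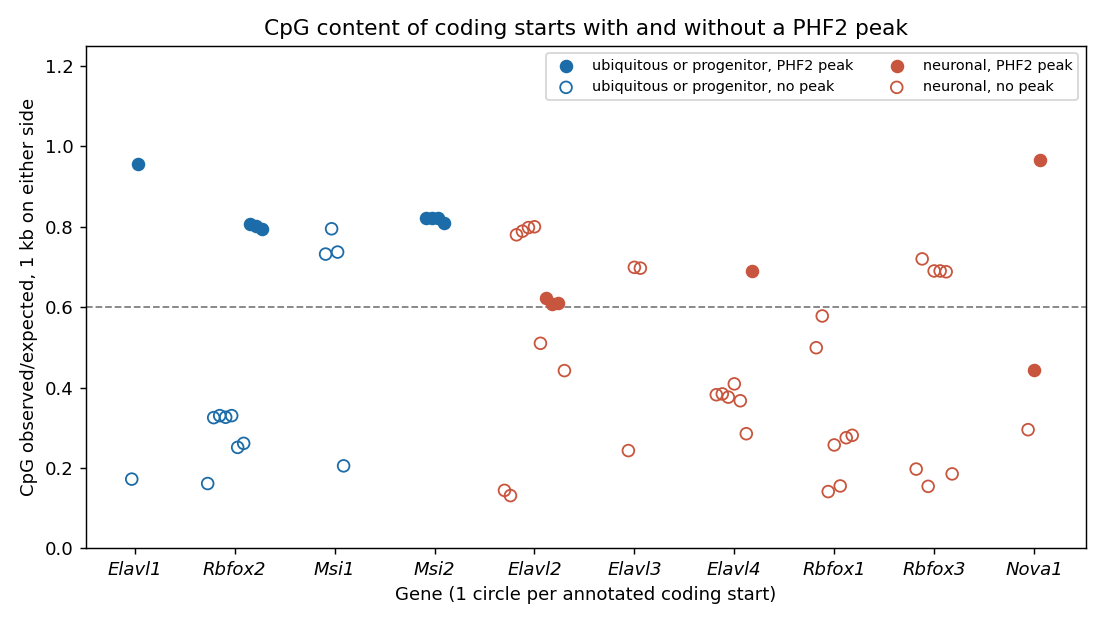
Each circle is 1 annotated coding start of the gene named on the x axis, with CpG observed/expected over 1 kb on either side on the y axis. Filled circles have a PHF2 peak within 1 kb and open circles have none, blue for ubiquitous or progenitor and red for neuronal genes. The dashed line is 0.6. Open circles above it belong to Msi1, Elavl2, Elavl3 and Rbfox3.

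Short motifs were searched as letters, on both strands, in the RefSeq promoter entries (250 bases before to 50 after a start, GRCm38.p6) that 8 of the 10 genes have. Of these 8, 6 are neuronal genes. The E-box CAGCTG occurred at 5 genes, all neuronal (Elavl2, Elavl3, Elavl4, Rbfox1 and Nova1), and at 17.7% of 16426 coding genes with an entry. The GC box GGGCGG occurred at Msi2, Elavl2 and Elavl3 and at 51.3% of coding genes. The letters GGACAG, the right part of the RE1 site of the neuronal gene repressor REST, occurred at Msi2 and Elavl2 and at 25.5% of coding genes, and the left part, TTCAGCACC, at none of the 8 and at 0.475% of coding genes. The TATA box TATAAA occurred at Elavl3 alone of the 8 (14.3% of coding genes), and the E-box CACGTG at Msi2 alone (9.22%). The ETS letters CCGGAAG (13.4%) and the palindromic NRF1 site (1.53%) occurred at none of the 8. Elavl2 and Elavl4 have more entries than most genes, which gives a motif more chances, and CAGCTG was present both at starts with a peak (at Elavl2 and Nova1) and at starts without (at Elavl2, Elavl3, Elavl4 and Rbfox1).

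The same split by class was looked at in 34 other RNA-binding protein genes, listed by name: 22 ubiquitous or progenitor genes and 12 neuronal genes. Of these, 15 of 22 (68.2%) and 1 of 12 (8.33%) had a PHF2 peak within 1 kb of a coding start, against 29.1% of all coding genes. The 1 neuronal gene was Ptbp2 (score 213.21), which encodes the neuronal polypyrimidine tract-binding protein. The highest score belonged to Ptbp1 (787.88), its counterpart in progenitors, which represses neuronal exons. Mbnl2 (561.16) and Mbnl1 (352.04) encode muscleblind splicing factors, Qk (538.39) the quaking protein of glia and progenitors, and Celf2 (521.51) a CUGBP-type factor. The Qk peak with the score of 538.39 was centred 2450 bp downstream of the nearest Qk start. A nearer Qk peak scored 156.46, and no Qk start lay under either peak. Igf2bp2 (453.94) encodes an mRNA-binding protein of embryonic cells and Tardbp (326.80) the splicing repressor TDP-43. The 11 neuronal genes without a peak were Nova2, Celf3, Celf4, Celf5, Celf6, Srrm3, Srrm4, Khdrbs2, Khdrbs3, Cpeb1 and Stau2. The ubiquitous or progenitor genes without a peak were Mbnl3, Fmr1, Fxr2, Pum2, Lin28a, Lin28b and Igf2bp1. In the 3 highest deciles of CpG observed/expected, 8 of 12 ubiquitous or progenitor genes and 1 of 6 neuronal genes had a peak, where 60.5% of all coding genes of these deciles did. Nova1 and Elavl2 had peaks of higher score than Ptbp2. Nova2, the close relative of Nova1, had its nearest peak 345 kb away.

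**Figure D3:**
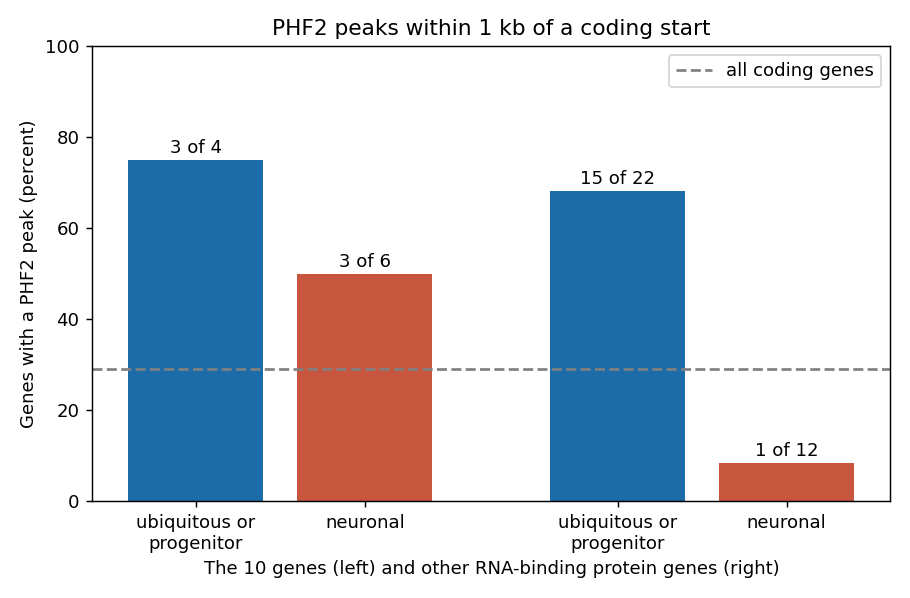
Bars give the percentage of genes with a PHF2 peak within 1 kb of a coding start, for the 10 genes on the left and the 34 other RNA-binding protein genes on the right, with the counts above the bars. Blue bars are ubiquitous or progenitor genes and red bars neuronal genes. The dashed line is the rate of all coding genes, 29.1%. The bars of the ubiquitous or progenitor genes stand at 3 of 4 and 15 of 22, those of the neuronal genes at 3 of 6 and 1 of 12.

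H3K9me2 regions were rare at the starts of coding genes in general, these 10 included. No ubiquitous or progenitor gene and 1 of 6 neuronal genes, Elavl4, had a region within 1 kb of a coding start, where 2.3% of all coding genes did. The Elavl4 region had 73 bp, the shortest length in the list, and lay in an intron (chromosome 4, 110293682 to 110293754), 960 bp from the start of the shorter transcript Elavl4-206. No gene of either class had a region within 500 bp of a start, where 1.05% of coding genes did, or within 1 kb of the 5′-most start (1.44%), or a region longer than 73 bp within 1 kb of a start (0.932%). Elavl4 was thus one of the 0.466% of coding genes with both a PHF2 peak and an H3K9me2 region in the windows of its starts, but the PHF2 peak lay at the outer start, 59.2 kb from the start beside the region. Of the 34 other genes, Celf1 alone had a region within 1 kb of a start, at an inner one, and it too had a PHF2 peak (score 295.23). The nearest region to a start lay 5.91 kb away at Elavl3, 6.18 kb at Elavl2, 6.98 kb at Rbfox2 and 7.12 kb at Rbfox1. It lay 11.5 kb away at Rbfox3, 41.6 kb at Nova1, 78.5 kb at Elavl1, 163 kb at Msi1 and 298 kb at Msi2. No PHF2 peak of the 10 genes overlapped a region, and the nearest region to a peak centre was 17.4 kb away, at Elavl2.

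Within gene bodies, most H3K9me2 regions were in Rbfox1, the longest of the 10 genes. Regions lay in 7 of the 10 bodies, against 24.3% of all coding gene bodies, which are mostly shorter. The 10 bodies held 38 regions over 3.08 Mb, 12.3 per Mb (95% exact Poisson interval 8.73 to 16.9), and 13.0 per Mb was the pooled value of all coding genes. Intervals cover counting error only. Rbfox1, 1530 kb long, held 27 of the 38 regions (71.1%), 17.7 per Mb (11.7 to 25.7), and coding genes over 500 kb held 17.1 per Mb. Of the 230 genes of that length, 47.4% had the same density or a higher one. Rbfox3, 422 kb long, held 1 region, 2.37 per Mb (0.0600 to 13.2), where coding genes of 200 to 500 kb held 15.7 per Mb and 95.2% of them had the same density or a higher one. Its flanks of 200 kb on either side held 0 regions. Rbfox2 (3 regions, 13.2 per Mb) and Msi2 (3 regions, 7.91 per Mb) belong to the same length class, in which 95.3% of genes had at least 1. Elavl4 held 2 regions (13.5 per Mb), Elavl2 held 1 (6.67 per Mb) and Nova1 held 0, where coding genes of 50 to 200 kb held 12.1 per Mb and 59.8% of them had at least 1. Elavl3 held 1 region, and Elavl1 and Msi1 held 0, where 11.5% of genes under 50 kb had any. The body of Nova1, with 0 regions (interval 0 to 29.7 per Mb), lay between flanks with 20.0 per Mb, a value inside that interval. Elavl1 and Msi1, also with 0, had flanks with 15.0 and 2.5 per Mb.

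By class, ubiquitous or progenitor genes held 6 regions over 0.673 Mb, 8.91 per Mb (3.27 to 19.4), and neuronal genes held 32 over 2.41 Mb, 13.3 per Mb (9.09 to 18.8). The difference of -4.38 per Mb between these pooled densities rested on Rbfox1. Without it neuronal genes held 5 regions, 5.67 per Mb (1.84 to 13.2), and the difference turned to 3.24. It also turned, to 3.27, when only regions longer than 73 bp were counted (7.43 against 4.15 per Mb). The median of the per-gene densities kept the sign, at 3.96 per Mb for ubiquitous or progenitor genes and 10.1 for neuronal genes. The value of 3.96 rests on 4 genes, of which Elavl1 and Msi1, both under 50 kb, held 0. The median of all coding genes under 50 kb was 0 as well. Without Rbfox1 the neuronal median was 6.67 per Mb. The intervals of the pooled densities of the classes overlapped both with and without Rbfox1. In the 34 other RNA-binding protein genes the pooled densities had the opposite order. Ubiquitous or progenitor genes held 15.2 per Mb (10.8 to 20.9) and neuronal genes 11.6 (7.07 to 17.9). The medians of the per-gene densities there were 3.21 and 3.28 per Mb.

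**Figure D4:**
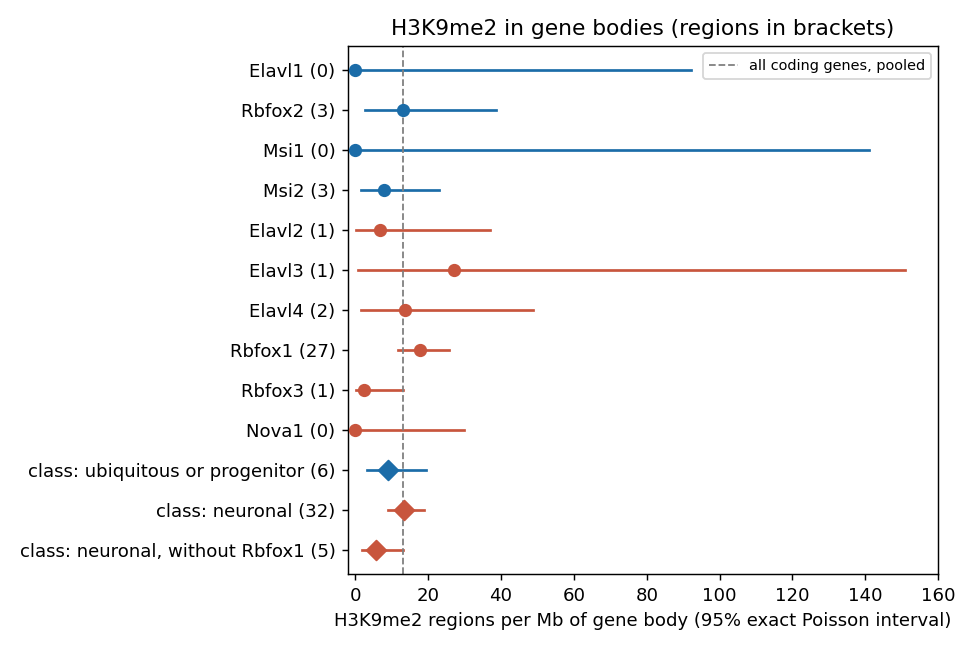
Points are H3K9me2 regions per Mb of gene body, with the number of regions in brackets and bars for the 95% exact Poisson interval, blue for ubiquitous or progenitor and red for neuronal genes. Diamonds pool a class, and the dashed line is 13.0 per Mb, the pooled value of all coding genes. The interval of Rbfox1 starts at 11.7 and that of Rbfox3 ends at 13.2, and the neuronal class lies lower without Rbfox1.

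All 38 regions lay in introns, and exons made up 2.41% of the 10 gene bodies. Their lengths ran from 73 to 177 bp, and 23 (60.5%) had the shortest length, as did 56.3% of regions in all coding gene bodies. Of CpG dinucleotides, 20 regions held 0, 11 held 1 and 7 held 2, and no count for other regions or introns was set beside these. In 1 of the 38 (2.63%), most bases were soft-masked as repeats, where 14.7% of regions in all coding gene bodies were. The Elavl4 region near a start and the longest region of the 10 genes, in an intron of Rbfox1, are shown because they are the 1 call at a start and the longest call. Neither holds a CpG dinucleotide, and no letter is in capitals.
Elavl4 region (chr4:110293682-110293754, plus strand): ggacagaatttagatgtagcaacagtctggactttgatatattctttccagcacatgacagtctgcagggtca
Rbfox1 region (chr16:6856140-6856316, plus strand): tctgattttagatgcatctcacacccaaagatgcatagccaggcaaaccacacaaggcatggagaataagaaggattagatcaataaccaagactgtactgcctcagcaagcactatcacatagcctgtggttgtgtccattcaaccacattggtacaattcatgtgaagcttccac
Along Rbfox1 the regions were spread over the whole gene, with 6, 6, 4, 4 and 7 in the 5 equal parts from the 5′ end. Neighbouring regions lay a median of 34.2 kb apart, from 0.107 to 245 kb. The GC content of the regions in Rbfox1 had a median of 43.8% (30.1% to 53.4%), and that of the gene body was 42.1%. The 3 regions of Msi2 all lay in the last part of the gene, 298 to 372 kb from its 5′ end, and the 3 of Rbfox2 lay 112 to 146 kb from its 5′ end.

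**Figure D5:**
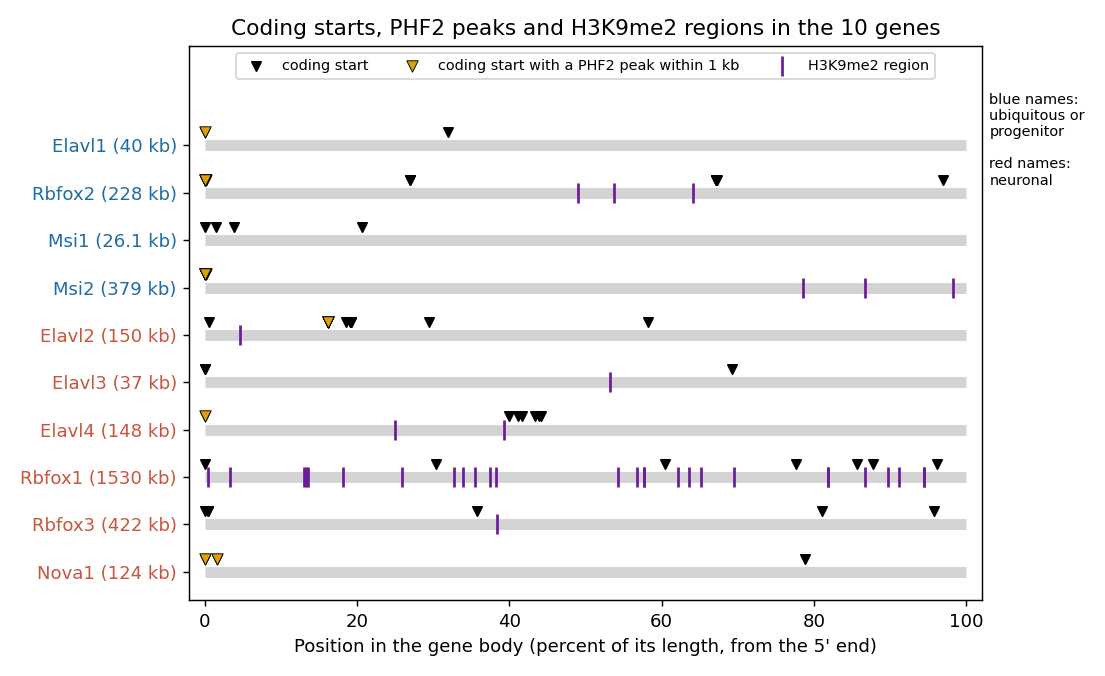
Grey bars are the 10 gene bodies, each scaled to its own length in percent from the 5′ end, with the length in kb beside the name. Triangles are coding starts, yellow where a PHF2 peak lies within 1 kb, and purple ticks are H3K9me2 regions. The yellow triangles lie at or near the 5′ end except at Elavl2, and 27 of the 38 ticks are in Rbfox1.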

How the data were processed

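ChIP-seq of PHF2 and of H3K9me2 in mouse neural stem cells gave 1 peak list each. Per the file headers, MACS in Galaxy made the PHF2 list. The submitters' processing notes list Bowtie2 and mm10. Not given in the sources used here are the version, control and settings of MACS, the H3K9me2 caller and the meaning of the p threshold of the H3K9me2 list. The deposited score of a PHF2 peak has no stated scale, and the deposited score of every H3K9me2 region is 0. The 36111 H3K9me2 regions on chromosomes 1 to 19 and X were used, and the depth of both samples is unknown. These regions were 73 to 367 bp long, and 55.6% had the shortest length, so regions per Mb count short calls.

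Coordinates are 1-based on mm10. Starts of protein-coding transcripts and gene bodies came from GENCODE M21, and sequences from GRCm38.p6 of RefSeq. Overlap meant 1 bp or more. Python 3.11.15 with pandas 2.3.3, scipy 1.17.1 and pysam 0.24.0 was used, and the overlap counting was tested on simulated intervals. Regions per Mb have exact Poisson intervals at 95%.

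The genes and lists were chosen with earlier results of these data known. All 10 genes are named. Of the other list, the text names the 8 genes with the highest scores, neuronal genes with a peak and genes with an H3K9me2 region at a start. Not every gene that this rule names is reported here. The genes of that list without a peak, of either class, are named as well. The limit of 0.6 for CpG-rich starts was chosen after the values were seen. Alternatives were windows of 500 bp, 2 kb and 5 kb, other sets of starts (for CpG content too), other definitions of overlap and body, the higher-scoring 50% of peaks, longer regions, and classes without Msi1 and Msi2 or without Rbfox1.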

Additional observations from a re-analysis of the deposited data

How the results depend on the processing

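Counts of genes with a PHF2 peak were 3 of 4 ubiquitous or progenitor and 3 of 6 neuronal genes with windows of 500 bp, 2 kb and 5 kb, with starts of all transcripts and by peak centre. Under these settings 28.4% to 30.5% of all coding genes had one. Among the higher-scoring 50% of peaks, 1 ubiquitous or progenitor gene (Rbfox2) and 2 neuronal genes (Nova1 and Elavl2) had one. In the other list 13 of 22 ubiquitous or progenitor genes and 0 of 12 neuronal genes did, where 14.8% of coding genes did. With the 5′-most start alone, 13 of these 22 and 1 of these 12 had a peak, against 27.4% of all coding genes. The H3K9me2 call at Elavl4 ended, leaving 0 neuronal genes, with windows of 500 bp, with the 5′-most start alone and with regions longer than 73 bp. Of the 22 other ubiquitous or progenitor genes, 0 had a region at a start with windows of 500 bp (1.05% of all coding genes) or the 5′-most start (1.44%). With windows of 2 kb 2 did (4.98% of all coding genes), with starts of all transcripts 2 (3.5%), and with windows of 5 kb 3 (12.2%). The density of regions in neuronal bodies was 4.15 per Mb with longer regions and 5.67 per Mb without Rbfox1, and the difference between classes (ubiquitous or progenitor minus neuronal) reversed to 3.27 and 3.24. That difference kept its sign by the median of the per-gene densities (-6.13) and with Msi1 and Msi2 left out (-2.1). With limits of 0.5 and 0.7 for CpG-rich starts, chosen after seeing the data, 29.4% and 16.7% of such neuronal starts had a peak, and 72.7% of ubiquitous or progenitor ones at either limit. At the 5′-most start alone, CpG observed/expected moved by over 1.5 times at Rbfox2 (0.795), Elavl4 (0.689) and Rbfox3 (0.185). Each of these settings changes which starts, peaks, regions or genes are counted, and no further cause was tested. No paired analysis was possible because each group had 1 sample. With no read totals, the absence of a call does not show the absence of PHF2 or of the mark.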
